A study of Mus musculus with 4 samples.

Results

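The Mcm replication helicase genes Mcm2, Mcm3, Mcm4, Mcm5, Mcm6, Mcm7 and Mcm10 were followed through H3K27ac HiChIP counts of mouse embryonic stem cells. HiChIP joins DNA ends that lie close together in fixed nuclei, enriches them with an antibody, here against the histone mark H3K27ac of active promoters and enhancers, and counts read pairs between genomic intervals called anchors. A row of the count table is a pair of anchors, here named a loop, also where its count is no higher than background would give. The genes were chosen as a family. Mcm6, which drew attention to the family, was chosen by the counts of a loop between 2 of its anchors, which were far lower in the D2 than in the B6 libraries, so every value of Mcm6 between the strains is given below as a description with no test. Members were all rows with at least 1 anchor over the gene body or a start site of a gene. All 7 genes had such an anchor, and none was without one. They held 785 of the 1513030 rows and 11 of the 56562 anchors.

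The cells came from 2 inbred mouse strains, C57BL/6J, called B6, and DBA/2J, called D2. Strain is the whole genotype the labels give, with no transgene or treatment that sets the groups apart. Each strain had 2 cell lines, each line gave 1 library, and the labels name these as biological replicates, so 2 libraries per strain limit every comparison below. All lines were grown with serum, LIF and the inhibitors PD0325901 and CHIR99021, fixed with formaldehyde and cut with DpnII. The name of the D2 replicate 1 library carries the mark 10cyc and the other names 8cyc, which the labels do not explain. Library totals ran from 2767882 to 2944258 read pairs. Values are given as counts or as CPM, counts divided by the library total and multiplied by 1000000. Of 12 pluripotency markers 10 had an anchor, with 224 to 317 CPM per listed gene in the 4 libraries, and Klf2 and Tfcp2l1 had none. Of 7 feeder fibroblast markers 3 had an anchor, with 3.61 to 4.18 CPM per listed gene, and Col1a2, Col3a1, Twist2 and Prrx1 had none. Markers of other lineages lay between these sets. Of 4 endoderm markers 3 had an anchor (18.9 to 20.4 CPM per listed gene), and Foxa2 had none. All 3 mesoderm markers (20.8 to 28.9), 2 ectoderm markers (24.4 to 30.4) and 3 trophoblast markers (33.5 to 47.7) had an anchor.

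Mcm2 to Mcm7 encode the subunits of a ring-shaped complex that is loaded onto DNA at replication origins before S phase and then, with Cdc45 and the GINS proteins, unwinds DNA at the fork. Mcm10 is no part of the ring and helps to activate it. The genes are transcribed in proliferating cells, and E2F factors are well-known regulators of the family. Embryonic stem cells divide quickly and load these complexes in large amounts.

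The anchors were placed on the GRCm38 assembly with GENCODE M21 genes. Mcm6 lies on the minus strand of chromosome 1, from 128331590 to 128359664, and was the member with most anchors. Its anchor 1 (128328890 to 128335767) covered exons 14 to 17 of 17 and the 3′ end of the gene. Its anchor 2 (128336719 to 128350335) covered exons 5 to 13. The annotated starts in anchor 2, at 128343463 and 128346042, belong to retained-intron transcripts. Anchor 3 (128354243 to 128362545) covered exons 1 and 2 and both protein-coding start sites, at 128359664 and 128359647. The loop inside Mcm6 that drew attention to the family joins anchors 1 and 2, so the coding promoter lies in neither of its anchors.

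Both edges of each anchor on the 6 member chromosomes (20235 of 20235 anchors) fell on a GATC, the site that DpnII cuts. The reference sequence across the 4 edges of the loop inside Mcm6 is shown on the plus strand, because these cut sites set which read pairs the loop can count, with the site in capitals.
Mcm6 anchor 1 lower edge at chr1:128328880-128328903: ctcacaaaggGATCtgaggccttc
Mcm6 anchor 1 upper edge at chr1:128335757-128335780: tctccatctgGATCtcttcctctt
Mcm6 anchor 2 lower edge at chr1:128336709-128336732: tggtttgcaaGATCcgcctgcctc
Mcm6 anchor 2 upper edge at chr1:128350325-128350348: ttaaaatcatGATCtgctttgcaa

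The coding promoter of Mcm6, in anchor 3, is shown for its E2F-type letters. RefSeq promoter windows (GRCm38.p6, 250 bases before to 50 after a start) were found for 6 of the 7 genes, and Mcm4 had no entry. The motif TTTNGCGC, which covers a usual form of the E2F site, was searched on both strands. The window of Mcm6 held 3 matches, of which the first and second overlap on opposite strands and start 110 and 106 bases before the RefSeq start at 128359705, and the third starts 47 bases before it. The 250 bases upstream are given 5′ to 3′ on the minus strand, with the matches in capitals.
Mcm6 upstream of the start site at chr1:128359706-128359955: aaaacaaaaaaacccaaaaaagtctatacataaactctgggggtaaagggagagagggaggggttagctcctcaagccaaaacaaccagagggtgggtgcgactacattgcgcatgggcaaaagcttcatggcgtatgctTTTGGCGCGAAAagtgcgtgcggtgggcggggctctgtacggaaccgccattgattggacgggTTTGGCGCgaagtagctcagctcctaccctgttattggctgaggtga

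The same letters occurred in windows of Mcm3, Mcm5 and Mcm7 and in no window of Mcm2 and Mcm10. Of all 32851 promoter windows in the table, 452 (1.38%) held a match. The match of Mcm3 starts at base 39 after the start and that of Mcm7 at base 17, while another window of Mcm7 held no match. Those of Mcm5 start 153 and 149 bases before the start. The stretches around the other members' matches are set beside those of Mcm6 to compare the letters, with matches in capitals and overlapping matches in Mcm5.
Mcm3 at chr1:20820263-20820292, minus strand: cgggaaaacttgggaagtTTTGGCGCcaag
Mcm5 at chr8:75109347-75109376, plus strand: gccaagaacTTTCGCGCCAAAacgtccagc
Mcm7 at chr5:138171849-138171878, minus strand: gggtgacgacgTTTCGCGCcaatttcggtt
The CCAAT letters of NF-Y sites, found in 37.4% of all windows, and the GGGCGG letters of Sp1 sites, found in 35.7%, were each searched on both strands. At least 1 CCAAT match was present in every window of these 6 genes, and GGGCGG in every window but that of Mcm5. A match is a stretch of letters and not a measured site. The anchors with a coding start site held 11.1 to 20.1 CpG per kb, and the other anchors 8.89 to 11.3.

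CPM over Mcm6 in D2 was 0.513 times that in B6, while the other 6 genes had D2 to B6 ratios of 0.829 to 1.25. Summed over all rows of the gene, Mcm6 had 535 and 483 counts in the B6 libraries (replicate 1 first, here and below) and 250 and 272 in the D2 libraries. Scaled to library totals this was 178 ± 8.14 CPM for B6 against 91.4 ± 1.46 CPM for D2 (SD, n = 2 each). Both D2 libraries lay far below both B6 libraries, and the strain means differed 1.95-fold. The fitted log2 fold change of D2 over B6 was -1.01 (SE 0.13), given without a test because the gene was chosen for this contrast. The libraries are of bulk cells, so fewer cells with a marked contact and less of it per cell cannot be told apart. Read pairs of both strains are counted on the same assembly. Differences of D2 in sequence or copy number over Mcm6 therefore cannot be told apart from less contact either, and were not tested. The antibody enriches marked DNA, so less H3K27ac cannot be told apart from less contact in these counts, and was not tested. Of 15262 protein-coding genes with at least 20 counts, 372 (2.44%) had a lower log2 fold change than Mcm6.

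**Figure D1:**
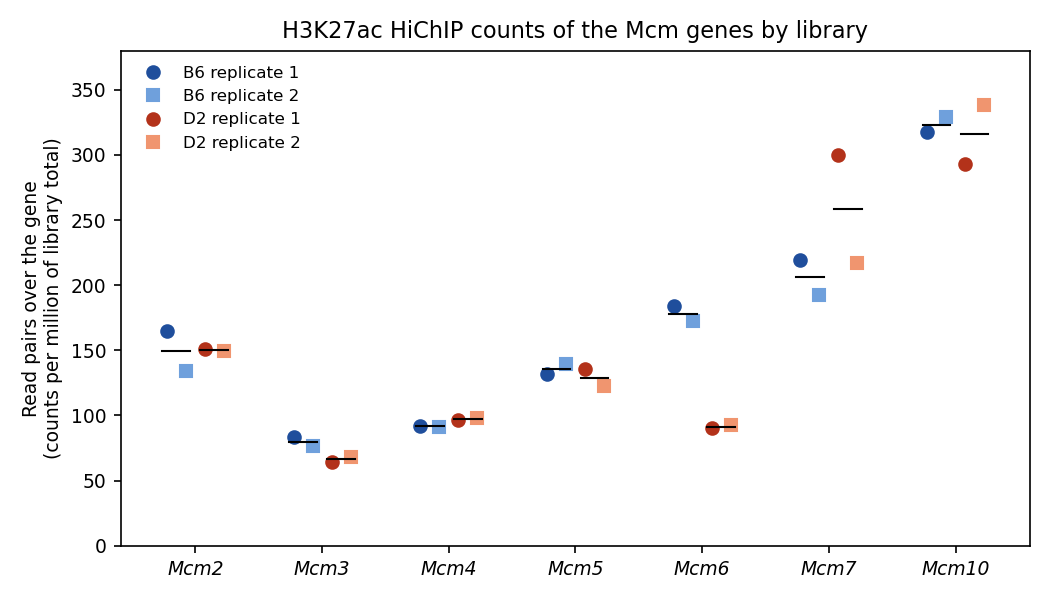
Read pairs summed over each Mcm gene, in CPM, for each of the 4 libraries, with bars at the strain means (n = 2). Mcm6 has both D2 libraries (90.3 and 92.4 CPM) far below both B6 libraries (184 and 172 CPM), while in Mcm2, Mcm5, Mcm7 and Mcm10 the strains overlap.

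None of the other 6 genes changed by edgeR's quasi-likelihood test on summed counts, fitted over all genes with Benjamini-Hochberg adjustment and a threshold of 0.05. In the same fit 16.7% of all genes tested were called. The unadjusted p was under 0.05 for 2 of the 6, Mcm3 and Mcm7, and DESeq2 called 0 with 0 at an unadjusted p under 0.05. The shares of all genes for these counts are not given here, so nothing is read from them. Strains did not overlap in Mcm3 and Mcm4, which is 2 of the 6 genes, against 57.3% of all genes tested. The median log2 fold change over all genes was -0.0048.

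The order of the genes by level differed between the strains in the place of Mcm6. Levels were taken per kb of anchor because anchor widths differ. The anchors of Mcm2, Mcm4 and Mcm7 also hold starts of other genes, so the order is one of anchors and not of the genes alone. The B6 means ran from Mcm10 (9.04 CPM per kb) and Mcm7 (8.73) through Mcm6 (6.19), Mcm2 (5.43), Mcm4 (5.39) and Mcm5 (4.20) to Mcm3 (3.07). In D2 the order was Mcm7 (10.9), Mcm10 (8.85), Mcm4 (5.71), Mcm2 (5.45), Mcm5 (4.00), Mcm6 (3.17) and Mcm3 (2.54). Mcm6 was thus the third gene in B6 and the sixth in D2. Mcm10 and Mcm7 overlapped in each strain, as did Mcm2 and Mcm4 in B6. Mcm6 in B6 (5.99 to 6.39 CPM per kb) lay only just above the higher library of Mcm2 (5.98).

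The loop inside Mcm6 spanned 11.2 kb between anchor midpoints and had 52 and 65 counts in B6 and 10 and 9 in D2. This was 20.5 ± 3.77 CPM for B6 against 3.33 ± 0.393 CPM for D2 (SD, n = 2 each), a 6.16-fold difference, and each D2 library lay below each B6 library. The fitted log2 fold change was -2.67 (SE 0.34). The deposited value per pair that was taken as the loop caller's q-value was 0 in both B6 libraries and 0.628 and 0.847 in the D2 libraries. The pair was thus called in each B6 library and in no D2 library at a q under 0.01.

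Against the loops of the other genes this loop stood at the low end. The other 6 genes had 123 loops with at least 20 counts, whose log2 fold changes ran from -1.60 to 1.26 with a median of -0.06. None of the 123 was as low as the loop inside Mcm6, which lay 2.61 below their median on the log2 scale. Of all 108034 loops tested, 174 (0.161%) were lower, and the median over all of them was 0.018. The loop was selected for its fold change, so its place at the end of this range is no test.

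Loops inside the gene of other members gave the nearest match in kind. Both have the coding start site in an anchor, which the loop inside Mcm6 does not. The loop between the anchors of Mcm5, 16.8 kb apart, had 70 and 107 counts in B6 and 78 and 79 in D2. The loop between the anchors of Mcm4, 9.94 kb apart, had 15 and 15 counts in B6 and 14 and 25 in D2. The Mcm4 pair had a q under 0.01 in 1 library, and the Mcm5 pair in 4. Strains overlapped in both, and neither passed edgeR's test over all loops. The log2 fold change was -0.24 for the Mcm5 loop (SE 0.24, 95% interval -0.70 to 0.22, adjusted p 0.771) and 0.31 for the Mcm4 loop (SE 0.38, interval -0.44 to 1.05, adjusted p 0.835).

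**Figure D2:**
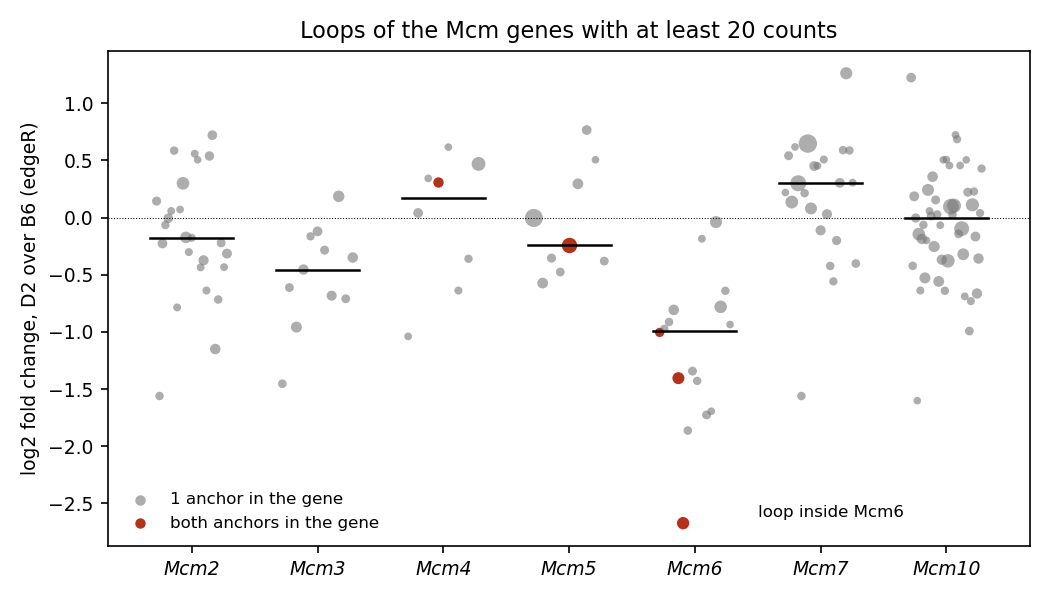
Log2 fold change of D2 over B6 for each of the 139 loops of the Mcm genes with at least 20 counts, with larger points for more counts, bars at the median of each gene, and red for loops with both anchors in the gene. Mcm6 loops lie between -2.67 and -0.04, and those of the other genes on both sides of 0.

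The rest of Mcm6 was also lower in D2, by less. Apart from the selected loop, Mcm6 had 15 loops with at least 20 counts. Their fitted log2 fold changes were negative in all 15, with a median of -0.97 and a range of -1.86 to -0.04, and 7 lay below -1. These loops share the 3 Mcm6 anchors, so they are not independent. Some reached the minimum mostly through B6, such as anchor 2 to Ubxn4, with 9 and 7 counts in B6 and 1 and 4 in D2. Nothing is read from their number. The strains did not overlap in 11 of the 15, each lower in D2, where 17.9% of all loops tested were apart in that direction and 23.8% in the other; as the gene was chosen for this contrast, nothing is read from that count. Another 132 rows were under the minimum of 20 counts, and their sums of 195 and 187 counts in B6 and 102 and 113 in D2 gave a 1.78-fold difference. Counts were present in 103 and 97 of the 148 rows of Mcm6 in B6 and in 76 and 85 in D2.

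The other pairs among the anchors of Mcm6 had smaller differences than the pair of anchors 1 and 2. Anchors 2 and 3, the middle of the gene and its coding promoter, shared 47 and 42 counts in B6 and 19 and 16 in D2 (log2 fold change -1.41, SE 0.32). Anchors 1 and 3, the 3′ end and the promoter, shared 15 and 14 counts in B6 and 8 and 7 in D2 (log2 fold change -1.0, SE 0.48). In each pair both D2 libraries lay below both B6 libraries.

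Anchor 2, over the middle exons, summed to 291 and 269 counts in B6 against 89 and 136 in D2, which is 2.50-fold (log2 fold change -1.29, SE 0.17). Anchor 1 had 168 and 169 counts in B6 and 74 and 84 in D2, which is 2.14-fold (log2 fold change -1.06, SE 0.17). Anchor 3 had 190 and 166 counts in B6 and 124 and 84 in D2, which is 1.70-fold (log2 fold change -0.73, SE 0.18). All 3 anchors were lower in both D2 libraries. The promoter anchor moved with the D2 library used, to -1.15 without D2 replicate 1 and -0.38 without D2 replicate 2. The order of the 3 anchors is therefore not settled, since anchors 1 and 2 were at -1.07 and -1.11 without D2 replicate 1. With the selected loop taken out of the sums, both of its anchors were still lower in D2. Anchor 1 then had 116 and 104 counts in B6 and 64 and 75 in D2 (1.58-fold), and anchor 2 had 239 and 204 in B6 and 79 and 127 in D2 (2.16-fold).

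The partner outside the gene with the most counts was an anchor at 128386227 to 128420088 with the start site of Dars, the aspartyl-tRNA synthetase gene upstream of Mcm6. Anchor 2 shared 56 and 36 counts with it in B6 and 17 and 39 in D2 (log2 fold change -0.78, SE 0.29), so the strains overlapped. Anchor 1 shared 29 and 18 counts in B6 and 10 and 18 in D2 (log2 fold change -0.81, SE 0.37), with equal counts in replicate 2 of each strain. The promoter anchor shared 34 and 28 counts with it in B6 and 40 and 23 in D2 (log2 fold change -0.04, SE 0.30). Counts between the promoters of Mcm6 and Dars thus overlapped between the strains, while those of the 3 pairs within the gene did not. All 3 Dars values depended on single libraries. The promoter loop was at -0.54 without D2 replicate 1 and 0.33 without D2 replicate 2, with 0.03 by library totals alone. The loop of anchor 2 was at -0.34 and -1.46 without these libraries, and that of anchor 1 at -0.49 and -1.25. Without B6 replicate 1 the loops of anchors 1 and 2 were both at -0.46. Toward higher coordinates, the side of Dars, all rows of the promoter anchor outside the gene summed to 73 and 81 counts in B6 and 72 and 40 in D2. Toward lower coordinates, the side of Lct and Ubxn4, they summed to 55 and 29 in B6 and 25 and 21 in D2. The strains overlapped on the side of Dars and did not overlap on the other side. The sum on the side of Dars includes the loop to the start of Dars. On that side, anchor 3 shared 14 and 11 counts with an anchor inside Dars in B6 and 6 and 1 in D2 (log2 fold change -1.86). With an anchor at 128432081 it shared 11 and 10 counts in B6 and 6 and 2 in D2 (log2 fold change -1.43). In both of these loops each D2 library lay below each B6 library, with few counts.

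**Figure D3:**
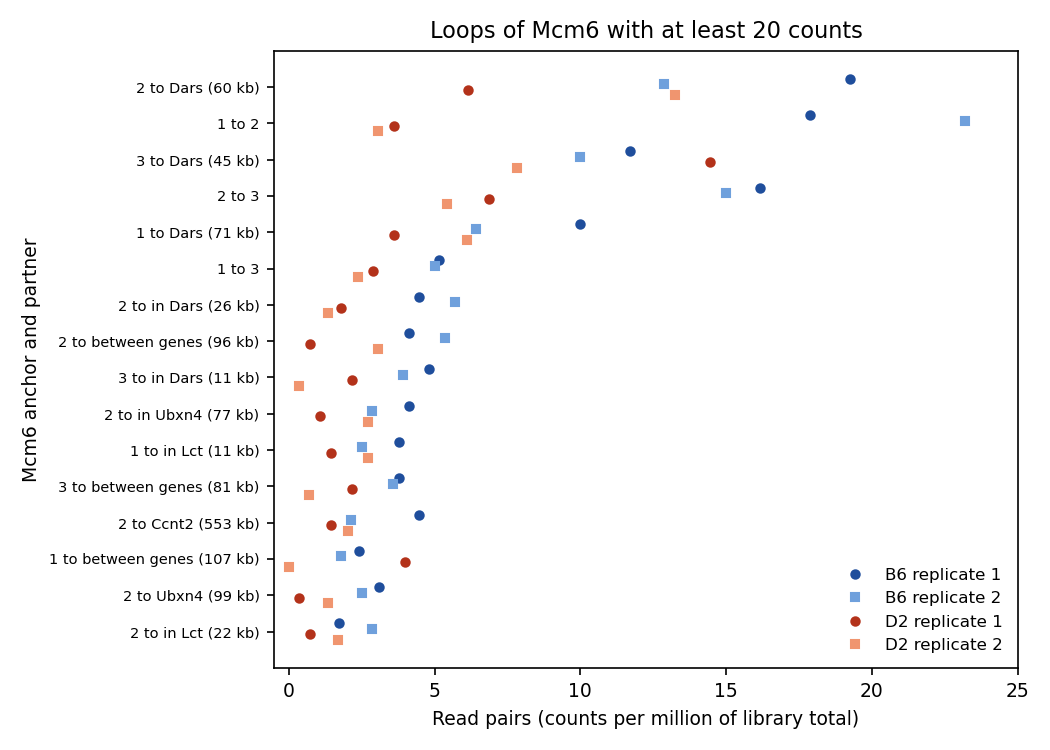
CPM of the 16 Mcm6 loops with at least 20 counts, in each of the 4 libraries, named by the Mcm6 anchor (1 at the 3′ end, 2 in the middle, 3 at the coding promoter) and its partner with the distance between midpoints. The loop of anchors 1 and 2 has 17.9 and 23.2 CPM in B6 and 3.61 and 3.06 in D2, while the loops of anchors 2 and 3 to Dars overlap between the strains.

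Most anchors near Mcm6 differed less between the strains than those inside it. Within 300 kb of the coding start site lay 26 anchors, and of the 23 outside Mcm6, 15 had a negative log2 fold change. Their median was -0.21 and their range -0.80 to 0.46, while the 3 Mcm6 anchors lay at -1.29, -1.06 and -0.73. The lowest of the 23, and the 1 below the promoter anchor of Mcm6, was a narrow anchor with 23 and 34 counts in B6 and 13 and 19 in D2. The Dars anchor had 392 and 391 counts in B6 and 456 and 401 in D2 (log2 fold change 0.17, SE 0.16), and the strains overlapped after scaling. The nearest anchor on each side of Mcm6 was lower in both D2 libraries after scaling. That inside Dars had 68 and 77 counts in B6 and 54 and 45 in D2 (log2 fold change -0.51, SE 0.22). That inside Lct had 46 and 42 counts in B6 and 35 and 33 in D2 (log2 fold change -0.34, SE 0.26). The sums of these anchors include their loops to Mcm6.

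**Figure D4:**
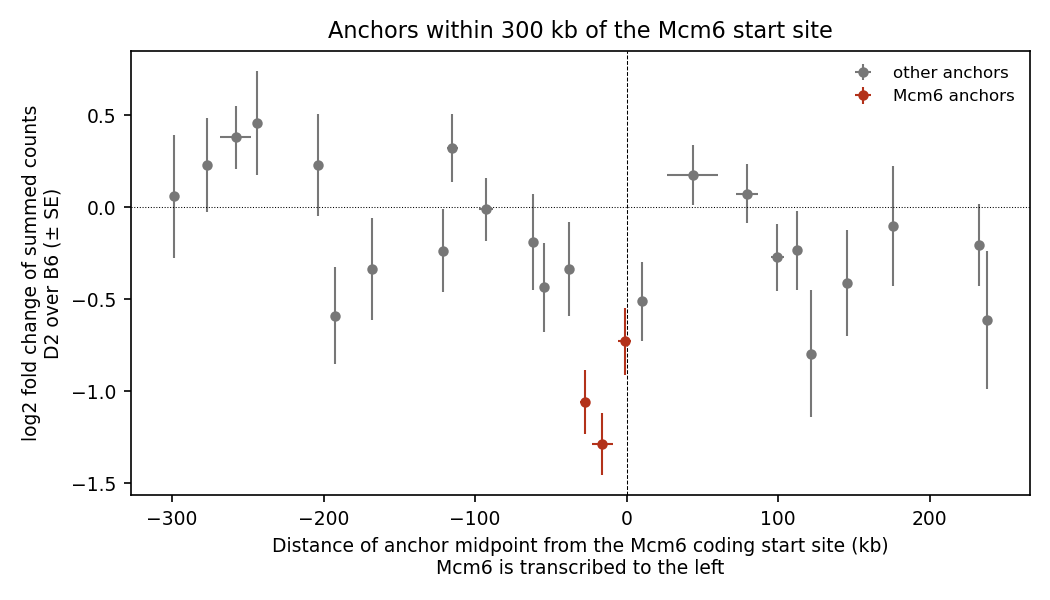
Log2 fold change of D2 over B6 of the summed counts of each anchor, with its SE, against the distance of its midpoint from the coding start site of Mcm6 in kb; horizontal bars give anchor width. The 3 Mcm6 anchors (red) lie between -1.29 and -0.73, and the others within 300 kb between -0.80 and 0.46.

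Mcm4 and Mcm7 encode the subunits that form a helicase core with Mcm6. Mcm4 (chromosome 16, 15623897 to 15637400, minus strand) shares its promoter anchor with the start of Prkdc. It had 92.1 and 91.0 CPM in B6 and 96.5 and 97.8 CPM in D2, which gives 91.6 ± 0.782 CPM and 97.1 ± 0.957 CPM (SD, n = 2 each). Both D2 libraries lay slightly above both B6 libraries after scaling, and the gene did not pass the test (log2 fold change 0.04, 95% interval -0.23 to 0.32, edgeR adjusted p 0.886). Scaled by the totals of its chromosome the log2 fold change was -0.0077. Its loop with the most counts went to Ube2v2, with 51 and 38 counts in B6 and 64 and 65 in D2 (log2 fold change 0.47, SE 0.26, edgeR adjusted p 0.478).

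Mcm7 (chromosome 5, 138164583 to 138172422, minus strand) was the only one of the 6 other members with a changed loop, and the call was lost when any of 3 libraries was left out. Its single anchor of 23602 bp also holds the starts of Ap4m1, Cops6 and Zfp113, so its counts cannot be given to Mcm7 alone. The gene had 638 and 540 counts in B6 and 830 and 638 in D2, or 206 ± 18.8 CPM and 258 ± 58.8 CPM (SD, n = 2 each). D2 replicate 1 lay above the other 3 libraries and D2 replicate 2 between the B6 libraries, and the log2 fold change of 0.28 (SE 0.12, interval 0.04 to 0.52) did not pass (edgeR adjusted p 0.102). It was 0.04 without D2 replicate 1 and 0.51 without D2 replicate 2, where it passed (edgeR adjusted p 5.2e-05).

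The changed loop joined the Mcm7 anchor with an anchor 383 kb away, at 137774015 to 137789154, that holds the starts of Mepce, Ppp1r35 and Zcwpw1. It had 21 and 16 counts in B6 and 62 and 31 in D2, or 6.47 ± 1.07 CPM and 16.5 ± 8.39 CPM (SD, n = 2 each). Both D2 libraries were higher, D2 replicate 1 by most (log2 fold change 1.26, SE 0.31, edgeR adjusted p 0.0079). This was 1 call among the 123 loops of the 6 genes, where 1.45% of all loops tested were called and 0.492% were called higher in D2. Without D2 replicate 1 the log2 fold change was 0.63 (edgeR adjusted p 0.707), without B6 replicate 1 the adjusted p was 0.137, without B6 replicate 2 it was 0.335, and by DESeq2 it was 0.436. The Mcm7 loop with the most counts went to Cnpy4 and Taf6, 20.0 kb away, with 151 and 106 counts in B6 and 228 and 192 in D2. Both D2 libraries were higher in it as well, and it did not pass the test (log2 fold change 0.65, SE 0.22, edgeR adjusted p 0.121); without D2 replicate 2 it did (adjusted p 0.0063).

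Mcm2 and Mcm5 encode the subunits at the gate of the ring through which DNA enters. Mcm2 (chromosome 6, 88883474 to 88898780, minus strand) shares its anchor with the start of Tpra1. It had 479 and 375 counts in B6 and 417 and 439 in D2, or 149 ± 21.8 CPM and 150 ± 1.10 CPM (SD, n = 2 each). The D2 libraries lay between the B6 libraries, and the log2 fold change was -0.04 (95% interval -0.28 to 0.21, edgeR adjusted p 0.895), which turned to 0.0048 with library totals alone. Its loop with the most counts, to Abtb1 and Podxl2, had 41 and 25 counts in B6 and 43 and 42 in D2 (log2 fold change 0.30, SE 0.28, edgeR adjusted p 0.760).

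Mcm5 (chromosome 8, 75109569 to 75128439, plus strand) had 383 and 391 counts in B6 and 376 and 360 in D2, or 136 ± 5.59 CPM and 129 ± 9.60 CPM (SD, n = 2 each). The strains overlapped, with a log2 fold change of -0.11 (95% interval -0.37 to 0.14, edgeR adjusted p 0.624). Its strongest partner was the start of Hmox1, the gene of heme oxygenase, 25.5 kb away. That loop had 166 and 140 counts in B6 and 167 and 152 in D2. The strains overlapped and the log2 fold change was -0.0031 (SE 0.22, 95% interval -0.43 to 0.43, edgeR adjusted p 0.995), with a sign that changed with the scaling.

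Mcm3, the remaining subunit of the ring (chromosome 1, 20802968 to 20820312, minus strand), had the lowest level per kb in both strains. It had 243 and 214 counts in B6 and 178 and 201 in D2, or 80.0 ± 5.05 CPM and 66.3 ± 2.80 CPM (SD, n = 2 each). Both D2 libraries lay below both B6 libraries, and the gene did not pass the test (log2 fold change -0.31, SE 0.15, interval -0.60 to -0.02, edgeR adjusted p 0.148). Of its 11 loops with at least 20 counts, 10 had a negative log2 fold change, with a median of -0.45, and none was called. Its loop with the most counts, to Gsta3 451 kb away, was the exception, with 27 and 20 counts in B6 and 26 and 30 in D2 (log2 fold change 0.19, SE 0.32, edgeR adjusted p 0.899).

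Mcm10, the activator outside the ring (chromosome 2, 4989714 to 5012791, minus strand), had the widest anchor, 35723 bp, which reaches into Ucma. It had 923 and 921 counts in B6 and 812 and 997 in D2, or 323 ± 8.11 CPM and 316 ± 32.0 CPM (SD, n = 2 each). The D2 libraries lay on either side of B6, and the log2 fold change was -0.07 (95% interval -0.30 to 0.15, edgeR adjusted p 0.747). Its 47 loops had a median of -0.0037, with 24 below and 23 above 0. The loop with the most counts, to Phyh 79.5 kb away, had 71 and 102 counts in B6 and 97 and 97 in D2 (log2 fold change 0.10, SE 0.23, edgeR adjusted p 0.924).

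Over the 123 loops of the 6 genes 65 had a negative and 58 a positive log2 fold change. The strains did not overlap in 49, of which 24 were lower and 25 higher in D2, against 41.7% of all loops tested. An unadjusted edgeR p under 0.05 was found for 9 of the 123, against 12681 of all 108034 loops tested. Summed per anchor, none of the 8 anchors of these genes was called by edgeR, where 9.75% of all anchors tested were called. Of the 8, 1 had an unadjusted edgeR p under 0.05 and 0 were called by DESeq2, counts for which no share of all anchors is given here.

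Other genes of DNA replication were taken as a list of 52 genes for origin recognition, loading, helicase activation and fork enzymes, and 18 regulators from the E2F, Rb, cyclin E and MuvB families, with Cdk2. All 70 had an anchor and were tested on summed counts. Of the 70, 10 changed by edgeR's test (14.3%), 5 higher and 5 lower in D2, against 16.7% of all genes tested, with 4.69% higher and 12.0% lower, and the median log2 fold change was 0.05. The count fell to 4 without B6 replicate 1, to 3 without B6 replicate 2 and to 4 by DESeq2, and rose to 20 without D2 replicate 2. The shares of all genes called under these other settings are not given here, so these counts show only how far the number moved. None of the 70 had a log2 fold change as low as that of Mcm6. As Mcm6 was chosen for this contrast, its place below the list is no test.

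Among the 52 replication genes 4 were higher and 3 lower. Pole3, a histone-fold subunit of DNA polymerase epsilon, had 137 and 129 counts in B6 and 311 and 353 in D2. Its only anchor also holds the starts of Alad and 4933430I17Rik, so these counts cannot be given to Pole3 alone. They rose by 1.28 on the log2 scale (SE 0.15, edgeR adjusted p 6.9e-12). Pold1, the catalytic subunit of polymerase delta, had 856 and 748 counts in B6 and 482 and 505 in D2 (log2 fold change -0.74, SE 0.12, edgeR adjusted p 3.4e-07), over anchors that also hold the start of Nr1h2. These 2 genes were called under all 11 settings run. Tipin, of the fork protection complex, fell (log2 fold change -0.40, edgeR adjusted p 0.0064), and the helicase gene Recql4 (0.51, adjusted p 0.0045) and the ligase gene Lig1 (0.43, adjusted p 0.0089) rose. The anchor of Recql4 also holds the start of Lrrc14, and those of Lig1 the start of Zswim9. Recql4 was not called without D2 replicate 1 (log2 fold change 0.34, edgeR adjusted p 0.0992), without B6 replicate 2 (0.28, adjusted p 0.496) or by DESeq2 (adjusted p 0.0963). Lig1 was not called without D2 replicate 1 (0.10, edgeR adjusted p 0.706), without B6 replicate 1 (adjusted p 0.119), without B6 replicate 2 (0.202) or by DESeq2 (0.139). Tipin was not called without B6 replicate 1 (edgeR adjusted p 0.277) or without B6 replicate 2 (0.0788).

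Among the 18 regulators 1 was higher and 2 were lower. Rbl2, the gene of the pocket protein p130 that holds E2F targets silent in resting cells, had 114 and 124 counts in B6 and 69 and 68 in D2 (log2 fold change -0.84, SE 0.20, edgeR adjusted p 0.00073; 0.0573 without B6 replicate 2). The repressor E2f8 had 57 and 67 counts in B6 and 112 and 95 in D2 (log2 fold change 0.70, edgeR adjusted p 0.010), a call lost without B6 replicate 1 (adjusted p 0.268), without D2 replicate 1 (0.139) and by DESeq2 (0.14). The activator E2f2 had 549 and 577 counts in B6 and 432 and 445 in D2 (log2 fold change -0.40, edgeR adjusted p 0.012), a call lost without B6 replicate 1 (adjusted p 0.103), without B6 replicate 2 (0.315), by DESeq2 (0.111) and with totals of its own chromosome (log2 fold change -0.19, adjusted p 0.298).

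**Figure D5:**
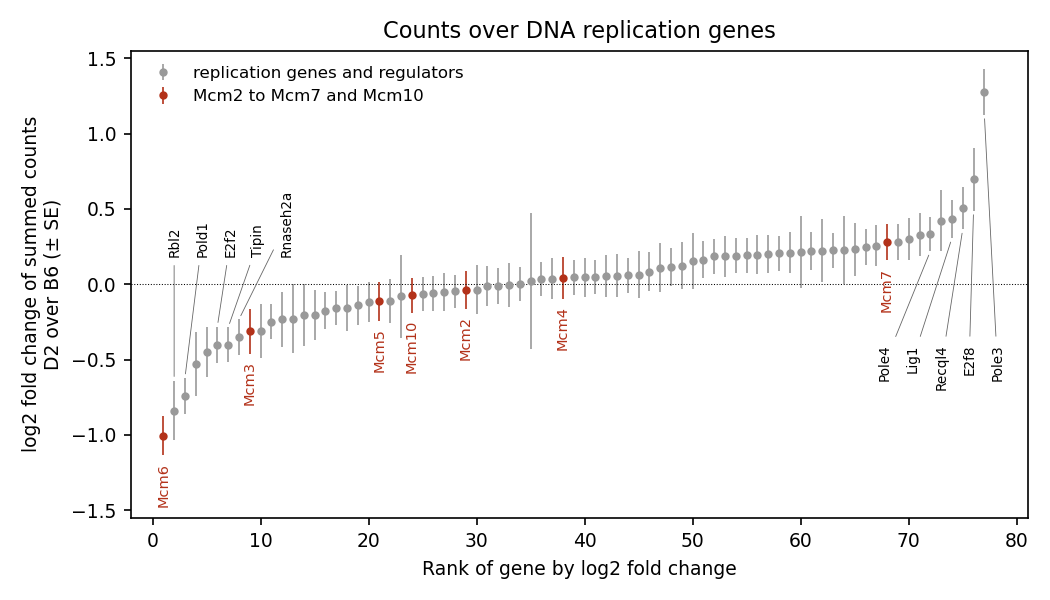
Log2 fold change of D2 over B6 of counts summed per gene, with its SE, for the 7 Mcm genes (red) and the 70 listed replication genes and regulators (grey), ordered by value; names in black mark the 10 listed genes with an edgeR adjusted p under 0.05. Mcm6, which was chosen for this contrast, is the lowest point (-1.01) and Pole3 the highest (1.28).

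The genes whose counts over the 4 libraries were most like those of Mcm6 were named by the smallest root mean square difference of centred log2(CPM + 1) of summed counts. They were Zfp382 on chromosome 7 (difference 0.014), Ppp2r3d on chromosome 9 (0.021), and Zfp459, Zfp429 and Zfp874a on chromosome 13 (0.022, 0.022 and 0.023). The chromosome 13 genes share an anchor, and Zfp459 and Zfp429 have the same counts. Zfp382, for example, had 649 and 597 counts in B6 and 303 and 328 in D2. The likeness is over 4 libraries, and Mcm6 was chosen for its strain difference, so nothing is read from it.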

How the data were processed

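H3K27ac HiChIP of 4 libraries was used, 2 of B6 and 2 of D2 cells. The deposited series table gives raw read-pair counts per pair of anchors, with no normalization, and a distance between anchor midpoints. The deposited files of single libraries hold the same counts (0 pairs differed) and a value from 0 to 1, with no header, which was taken as a q-value of the authors' loop caller. Per the submitters' processing notes HiC-Pro 2.11.4, DESeq2 and the build mm10 were used; their roles, the loop caller and read filters are not given in the sources used here.

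Loops, anchors (sum over their loops) and protein-coding genes (sum over rows with an anchor over the gene body or a start site, each row once) with at least 20 counts over the 4 libraries were compared by edgeR 4.0.16 (R 4.3.3, limma 3.58.1) with TMM factors computed at each level, a model with strain alone, and adjustment by Benjamini-Hochberg over 108034 loops, 51820 anchors and 15262 genes. Because the TMM factors differ by level, the same counts can give slightly different fold changes as anchor and as gene. Log2 fold changes are D2 over B6 from this fit; intervals are 95%; CPM values and folds use library totals alone and cover 2 libraries per strain. No molecular identifiers are known to have been used, and whether PCR duplicates were removed before counting is not given, so counts may include them. A 2 against 2 exact permutation test cannot give a p under 0.333 and was not used. The test was checked on simulated counts. Alternatives were DESeq2 1.42.0, other scaling, count minimums of 50 and 1, each library left out, a replicate block, start-site anchors only and loops of limited distance. Motifs were read from RefSeq promoter windows.

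The members, the gene lists and the tests were chosen with earlier results of these data known. All 7 genes are named; for each, the loop with the most counts and any called loop; of the listed replication genes the 8 with the smallest p; and the 5 genes most like Mcm6.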

Additional observations from a re-analysis of the deposited data

How the results depend on the processing

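The loop inside Mcm6 kept its direction under all 11 alternatives run, with log2 fold changes of -2.85 to -2.48 over the libraries left out. Its distance below the median of the other genes' loops was -2.89 to -2.44 with a library left out. The summed log2 fold change of Mcm6 was -0.91 with totals per chromosome, -1.12 over start-site anchors only, and -1.05 to -0.96 with a library left out. The loops of the other 6 genes called numbered 0 by DESeq2 (2 with an unadjusted p under 0.05), 2 with no count minimum, 0 among the 42 loops under 100 kb, 0 among the 2 loops with both anchors in the gene, and 0 to 3 with a library left out (3 without D2 replicate 2). With a library left out, 0 to 1 of their anchors and 0 to 1 of their gene sums were called, the 1 being Mcm7 without D2 replicate 2. Of the listed replication genes 4 were called by DESeq2 and 3 to 20 with a library left out. The cause of these changes was not tested. The shares of all loops, anchors and genes called under these settings are not given here, so the counts show only how far the calls moved.

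Values near 0 changed sign. The Mcm5 loop to Hmox1 was 0.063 with library totals, 0.0747 with TMM factors over all pairs, 0.0996 with totals per chromosome, 0.0746 with no minimum, and -0.12 to 0.10 with a library left out. The Mcm6 promoter loop to Dars was 0.03 with library totals and -0.54 to 0.33 with a library left out. The Mcm10 loop to Phyh ranged from -0.17 to 0.40 with a library left out. Summed counts gave 0.0048 for Mcm2 with library totals and -0.18 to 0.12 with a library left out, -0.0077 for Mcm4 with totals per chromosome, and -0.17 to 0.031 for Mcm10 with a library left out. The Mcm7 loop to Cnpy4 and Taf6 passed with no minimum (0.73).

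Equal replicate numbers were not taken as pairs of lines in the main model. Same-numbered libraries had deviation correlations of -0.0017 over loops, 0.010 over anchors and 0.045 over genes. Low counts pull such a correlation toward 0, so it cannot exclude something shared by libraries of equal number. With the replicate number as a block the loop inside Mcm6 was at -2.67. In that fit 1 loop of the other genes and 11 listed genes (5 higher, 6 lower) were called, against 10 listed genes without the block. The shares of all loops and genes called in that fit are not given here, so nothing is read from these counts. At 20 to 50 counts a loop leaves wide intervals, so a loop that missed the threshold is not shown to be equal.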
